A study of Mus musculus with 12 samples.

Results

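The comparison described here is that of somatic cells from XX mouse gonads that cannot make the -KTS variant of WT1 (XX -KTS KO, 2 libraries) with those of XX wild-type gonads (XX WT, 2 libraries). The cells were chosen by a fixed rule on each library: 1000 genes or more and no more than 10% of UMIs from mitochondria, minus germ, endothelial, immune and erythroid cells recognised by a few marker genes. The rule kept 21575 cells, 5846 and 6331 in XX WT replicates 1 and 2 and 4600 and 4798 in XX -KTS KO replicates 1 and 2, of 71955 kept cells in the 12 libraries of the series. The series holds both sexes as WT, -KTS KO and +KTS KO with 2 libraries each. Gonads were taken at embryonic day 12 (23 ± 3 tail somites), freed of the mesonephros and profiled by 3' droplet single-cell RNA sequencing, which counts unique molecular identifiers (UMIs) per gene and cell. Both groups were on a mixed B6CBAF1/JRj background, and the -KTS KO embryos carried the mutant allele of Wt1 on both chromosomes in every cell. The kidney, adrenal and mesothelium of the same embryos therefore lacked the variant too. The study's notes say that gonads of several embryos were pooled in -KTS KO samples, while its sample list enters each XX WT library and XX -KTS KO replicate 1 as 1 embryo. No label pairs a mutant with a wild-type embryo.

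WT1 is a zinc finger protein of the early gonad, kidney and mesothelium. An alternative splice donor at the end of one exon adds or leaves out the amino acids lysine, threonine and serine (KTS) between its last zinc fingers. The form without them (-KTS) binds DNA more tightly and acts as a transcription factor. In the XX gonad at this age, precursors of the supporting lineage turn into pre-granulosa cells, the ovarian counterpart of Sertoli cells, and switch on Foxl2, Fst and related genes under WNT4, RSPO1 and RUNX1. Other somatic cells remain as surface (coelomic) epithelium or as interstitial progenitors marked by Nr2f2. The messenger forms at the Wt1 donor are shown because the mutant lacks the shorter one. Over the stretch shown they differ only in the 9 added bases, in capitals. Both are read from GENCODE M21 transcripts on GRCm38, plus strand of chromosome 2, across the join of the exon that starts at 105169926 to the exon at chr2:105172223-105173612. The longer exon ends at 105170018 and the shorter at 105170009.
Wt1-201, +KTS: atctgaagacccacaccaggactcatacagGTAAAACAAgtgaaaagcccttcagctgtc
Wt1-202, -KTS: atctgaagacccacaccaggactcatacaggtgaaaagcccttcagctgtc

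Wt1 itself (ENSMUSG00000016458, chr2:105126529-105173616, plus strand) was transcribed in the mutant. Its level was 273 and 269 CPM against 290.3 and 263 CPM. CPM is a gene's UMIs, summed over the kept cells of a library, per 1e6 UMIs of the genes tested after TMM scaling. Throughout, each first pair gives XX WT replicates 1 and 2 and each second pair XX -KTS KO replicates 1 and 2. The ranges of the 2 groups overlapped (log2 fold change 0.03 ± 0.18 (SE), edgeR adjusted p = 0.94). Fold changes are KO over WT on the log2 scale from edgeR, with TMM scaling and a quasi-likelihood test over 12 libraries. The p-values are adjusted by Benjamini-Hochberg over all genes tested. Gene sums from the 3' end cannot tell the +KTS from the -KTS messenger, so this value does not check the genotype. The libraries carried their labelled sex by Xist and 4 Y-linked genes.

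The 4 XX libraries held 60596914 to 102034797 UMIs in kept cells, with a median of 11913 to 16460.5 UMIs a cell. The median share of mitochondrial UMIs in kept cells did not overlap between the groups, at 3.32% and 3.29% in XX WT against 2.43% and 1.83% in XX -KTS KO, and its part in the results was not tested. XX -KTS KO replicate 2 stood apart in that 31.5% of its kept cells had under 5000 UMIs, against 4.22% to 5.04% in the other 3. Any pair of these 4 libraries shared 4 to 14 cell barcodes. Among the cells that passed the gene and mitochondrial limits, germ cells made up 14.3% and 7.54% in XX WT against 6.06% and 20.7% in XX -KTS KO. Endothelial cells made up 2.03% and 3.04% against 1.03% and 1.28%, while immune and erythroid cells were at 0.254% to 0.614% and 1.04% to 1.48%. Germ and erythroid shares overlapped between the groups and endothelial and immune shares did not. With 2 libraries against 2, an exact permutation test cannot go below p = 0.33, so these shares were not tested. The summed level of the 11 germ cell markers tested in kept cells was 93.8 and 78.1 CPM against 25.2 and 145 CPM and that of the 12 erythroid markers 416 and 959 CPM against 172 and 421 CPM, both overlapping. Since levels are sums over many cells, fewer cells of a type and less RNA per cell cannot be told apart. Nothing in the sources says that the libraries of a group are separate litters. The p-values therefore measure only the spread between libraries within groups, estimated over all 12 libraries in 6 groups.

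Of 18019 genes tested in all kept cells, 2847 (15.8%) differed at an adjusted p under 0.05, with 1175 (6.52%) higher and 1672 (9.28%) lower in XX -KTS KO. Changes were often large. Among the genes called, 806 rose and 1214 fell by over 1 on the log2 scale, and 175 rose and 342 fell by over 3. The median over all genes tested was 0.01. All 2847 had groups that did not overlap, as did 64.0% of all genes tested. The count depends on having 2 libraries a group: it was 1108 without XX WT replicate 1, 1441 without XX WT replicate 2, 1270 without XX -KTS KO replicate 1 and 1331 without XX -KTS KO replicate 2, and 1511 when cells of other types were not set aside.

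**Figure D1:**
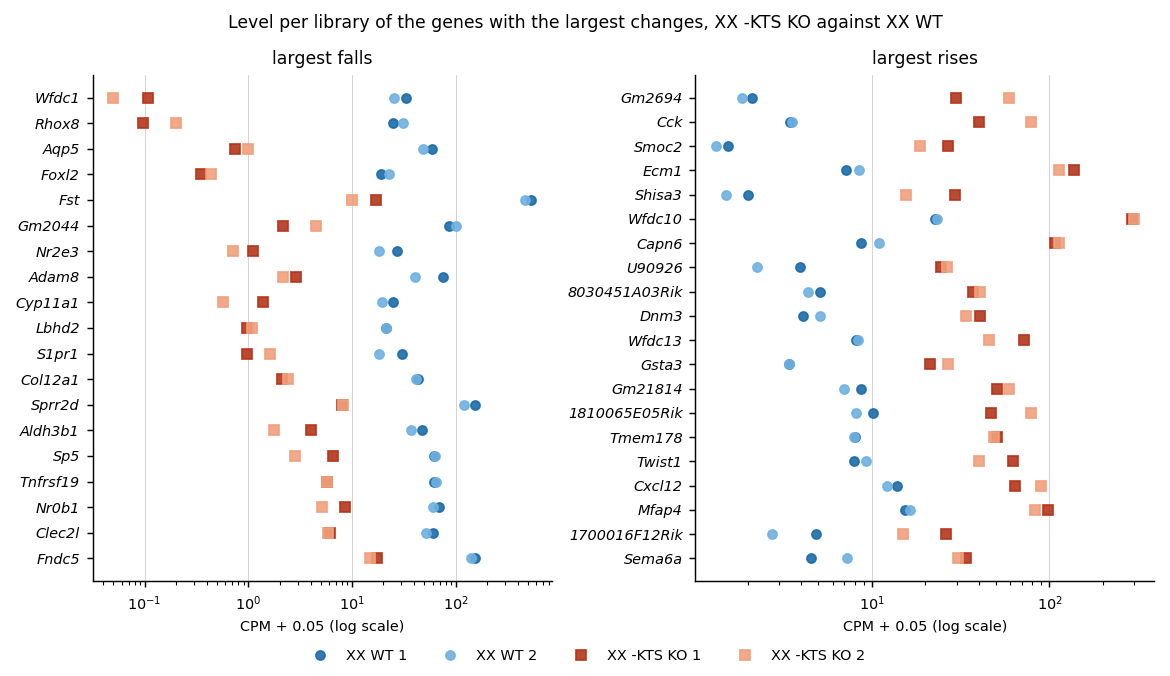
Level of the 20 genes with the largest falls, but for 1 gene not reported here, and of the 20 with the largest rises, that passed the test, did not overlap between the groups and reached a mean of 20 CPM in the higher group, in each of the 4 libraries (circles, XX WT; squares, XX -KTS KO; horizontal axis, CPM + 0.05 on a log scale). The choice of genes fixed that the XX WT points lie on one side of the XX -KTS KO points; Foxl2 goes from 18.98 and 22.6 CPM to 0.298 and 0.382 CPM.

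Transcripts listed for pre-granulosa cells were lower in the mutant. Of the 12 genes listed for that lineage, 7 fell, none rose (none at an unadjusted p under 0.05 or by DESeq2 either), and the median log2 fold change was -5.17. The list was chosen with earlier results of these data known, so its counts and median are a description and not a test. Over all genes tested 6.52% rose and 9.28% fell, the shares to set beside the counts of this and every later list. Foxl2 (ENSMUSG00000050397, chr9:98955288-98958543, plus strand), the forkhead factor that defines granulosa cells, was at 18.98 and 22.6 CPM against 0.298 and 0.382 CPM (log2 fold change -5.95 ± 0.78 (SE), edgeR adjusted p = 0.0013). Fst (ENSMUSG00000021765, chr13:114452290-114458951, minus strand), whose product follistatin binds activin, was at 529 and 463 CPM against 17.1 and 9.85 CPM (log2 fold change -5.20 ± 1.15 (SE), edgeR adjusted p = 0.015). For both genes the lowest XX WT library was far above the highest XX -KTS KO library. The X-linked homeobox gene Rhox8 went from 24.8 and 31.3 CPM to 0.0458 and 0.150 CPM (log2 fold change -8.27 ± 0.72 (SE), edgeR adjusted p = 2.5e-04). The water channel gene Aqp5 went from 59.3 and 48.6 CPM to 0.687 and 0.947 CPM (log2 fold change -6.06 ± 0.44 (SE), edgeR adjusted p = 1.5e-04). In cells without an Nr2f2 UMI, Aqp5 was at 65.7 and 51.0 CPM in XX WT and 131 and 93.7 CPM in XY WT. Rhox8 was at 29.3 and 36.1 CPM in XX WT and 46.1 and 72.5 CPM in XY WT in those cells. Both were higher in XY WT, so neither marks XX cells alone. Vgll2, a cofactor of TEAD factors, went from 17.2 and 17.8 CPM to 0.103 and 0.0499 CPM (log2 fold change -7.75 ± 1.27 (SE), edgeR adjusted p = 0.0038), and Cst12, a cystatin gene with close copies whose reads may be shared, fell by 6.96 on the log2 scale. All 4 were under 1 CPM in both mutant libraries. With 1 library fewer, edgeR's adjusted p was over 0.05 without XX WT replicate 1 (Fst at 0.052), without XX -KTS KO replicate 1 (Fst at 0.084) and without XX -KTS KO replicate 2 (Fst at 0.11). Rhox8 (from -8.27 to -2.69 with no cells of other types set aside) and Vgll2 (from -7.75 to -12.00 with each cell thinned to 5000 UMIs) moved by over 1.5 times on the log2 scale of the fit.

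The other 5 genes of the list did not pass the test. Irx3, an Iroquois homeobox gene, was at 57.8 and 59.8 CPM against 10.8 and 13.9 CPM (log2 fold change -2.25 ± 0.83 (SE), edgeR adjusted p = 0.096). The ligand genes Bmp2 and Kitl were at 57.5 and 47.3 CPM against 20.7 and 20.7 CPM (log2 fold change -1.34, edgeR adjusted p = 0.052) and at 320.4 and 374 CPM against 107 and 226 CPM (log2 fold change -1.06, edgeR adjusted p = 0.092). Irx5 and Msx1, also homeobox genes, were at 3.72 and 3.90 CPM against 2.08 and 2.01 CPM and at 72.9 and 60.4 CPM against 55.1 and 25.8 CPM, with adjusted p of 0.52 and 0.49 in edgeR. Both mutant libraries lay below both XX WT libraries in each of the 5, while groups did not overlap in 64.0% of all genes tested. For 4 of them other settings gave an adjusted p under 0.05, by edgeR unless DESeq2 is named. Irx3 passed with no filter on low counts (0.019) and with only the 4 XX libraries in the fit (3.9e-04). Bmp2 passed in DESeq2 (0.0046), with no filter on low counts (0.0078), with perivascular and mesonephric cells also left out (0.049), with each cell thinned to 5000 UMIs (0.045) and with only the 4 XX libraries in the fit (0.0014). Kitl passed in DESeq2 (0.023), with no filter on low counts (0.025) and without XX -KTS KO replicate 2 (0.044). Irx5 passed with only the 4 XX libraries in the fit (0.019). The log2 fold change of Kitl ran from -1.70 to -0.62 when 1 library was left out.

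The share of cells with a transcript was lower too. With every cell thinned to 5000 UMIs, Foxl2 was seen in 8.37% and 9.35% against 0.159% and 0.304% of kept cells, Fst in 44.7% and 43.2% against 4.27% and 2.49% and Irx3 in 17.2% and 17.7% against 3.65% and 4.41%. Shares of Bmp2 and Kitl were 19.96% and 16.6% against 6.40% and 7.63% and 56.6% and 61.99% against 24.04% and 47.6%. Endothelial cells of the same libraries were taken as cells with few supporting-cell transcripts. They held Foxl2 in 0% and 1.42% against 0% and 0% and Fst in 6.02% and 4.25% against 0% and 1.49%. Irx3 was seen in 9.77% and 15.1% against 4.17% and 5.97% and Bmp2 in 9.02% and 8.02% against 6.25% and 1.49% of them. In both mutant libraries the kept cells were above the endothelial cells of their own library for Foxl2, Fst and Bmp2 and below them for Irx3. Each of these kept shares lay within the 95% Wilson interval of its library's endothelial share, so that no difference was detectable with these few endothelial cells. In XX WT the kept shares of all 4 genes were above that interval, except for Irx3 in replicate 2. Kitl was seen in 47.9% to 56.7% of endothelial cells, which express it themselves, and cannot be read this way. For Irx3 the XX WT endothelial shares (9.77% and 15.1%) were not far under those of kept cells (17.2% and 17.7%). Its endothelial share is therefore not an empty background. Endothelial cells numbered 133, 212, 48 and 67 after thinning, so that the 95% Wilson interval of a count of 0 reaches 7.41% and 5.42% in the mutant libraries. Before thinning, the cells had medians of 12093 to 16894.5 UMIs (kept) and 17330 to 30283.5 UMIs (endothelial), and the unthinned shares of kept cells were 15.5% and 19.4% against 0.543% and 0.417% for Foxl2 and 49.2% and 49.1% against 8.24% and 3.23% for Fst. The 95% Wilson intervals of the thinned shares had half-widths of at most 1.71 percentage points in kept cells and 13.6 in endothelial cells, counting error only.

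The same 12 genes, chosen with earlier results of these data known, were also counted within each cell. A cell with 3 or more of them was found in 46.3% and 44.5% against 4.90% and 4.47%, with 2 or more in 59.7% and 59.02% against 13.2% and 15.6%, and with 4 or more in 32.04% and 31.7% against 1.38% and 1.06%. In endothelial cells these shares were 5.26% and 4.72% against 0% and 1.49% at 3 or more. They were 18.8% and 19.8% against 22.9% and 16.4% at 2 or more and 3.01% and 3.30% against 0% and 0% at 4 or more. The 12 genes include Kitl, which endothelial cells express themselves, so these endothelial shares are not a background level. At 2 or more, both mutant shares of kept cells were under those of their own endothelial cells. At 3 or more and at 4 or more both were above those of their own endothelial cells, of which only 48 and 67 were counted. In kept cells both mutant libraries were below both XX WT libraries at each number. These are ranges of a count and not cell types. The shares move with depth, and those at 3 or more were 59.8% ± 0.84 (SD, n = 2) and 13.3% ± 3.5 (SD, n = 2) without thinning.

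**Figure D2:**
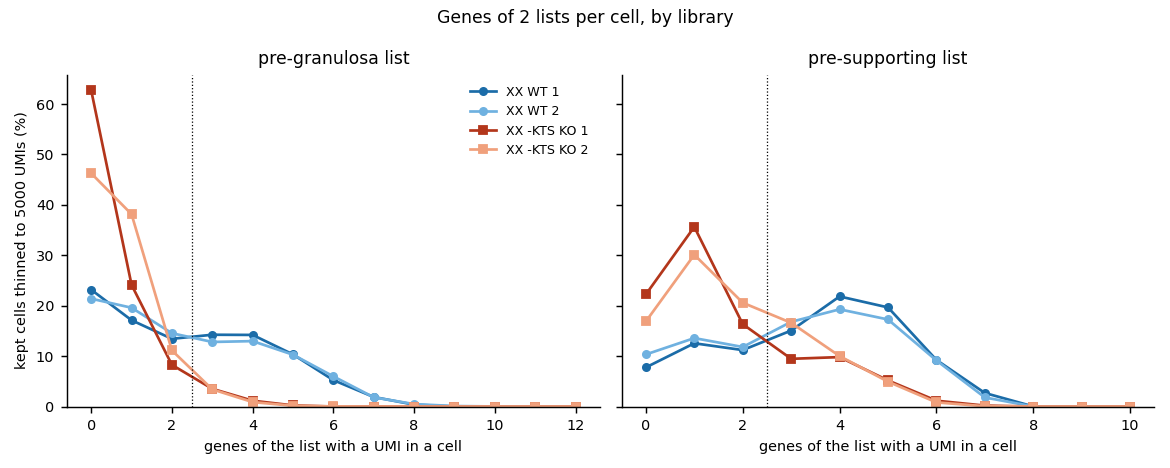
Share of kept cells thinned to 5000 UMIs (percent, vertical axis) by the number of pre-granulosa genes (left) or pre-supporting genes (right) with a UMI in a cell (horizontal axis), 1 line per library (circles, XX WT; squares, XX -KTS KO). Right of the dotted lines, at 3 genes or more, lie 46.3% and 44.5% against 4.90% and 4.47% of cells in the left panel and 68.5% and 64.3% against 25.8% and 32.4% in the right.

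Genes of the pre-supporting cells, the precursors of both Sertoli and pre-granulosa cells, were also lower in sums over all kept cells, with 6 falls and 1 rise in a list of 10 and a median of -1.41. Levels within pre-supporting cells alone were not measured here. Wnt6, a WNT ligand gene, was at 322 and 369 CPM against 82.8 and 53.9 CPM (log2 fold change -2.34 ± 0.20 (SE), edgeR adjusted p = 2.5e-04), and Nr0b1, the X-linked gene of the nuclear receptor DAX1, at 69.5 and 60.8 CPM against 8.53 and 5.05 CPM (log2 fold change -3.26 ± 0.31 (SE), edgeR adjusted p = 3.4e-04). Runx1, a factor of the supporting lineage, was at 96.3 and 104 CPM against 35.4 and 30.2 CPM (log2 fold change -1.61 ± 0.30 (SE), edgeR adjusted p = 0.0070). Sprr2d, one of a family of near-identical small proline-rich genes among which reads may be split, was at 154 and 119 CPM against 7.93 and 8.21 CPM (log2 fold change -4.08, edgeR adjusted p = 0.0073). None of these groups overlapped, as in all 2847 genes called and in 64.0% of all genes tested. Kctd14 and Gadd45g, named after their values were seen, fell from 2397 and 2039.7 CPM to 837 and 692 CPM and from 751 and 485 CPM to 224 and 283 CPM. Tac1, the gene of substance P and the 1 member that rose, went from 0.0787 and 0.00940 CPM to 4.81 and 10.9 CPM (log2 fold change 7.57, edgeR adjusted p = 0.0021). Rspo1, the WNT agonist needed for ovarian development, was at 203 and 153 CPM against 243 and 244 CPM and did not pass the test (log2 fold change 0.45, edgeR adjusted p = 0.37). Left out in turn, single libraries ended calls by edgeR's adjusted p without XX WT replicate 1 (Gadd45g at 0.17), without XX -KTS KO replicate 1 (Sprr2d at 0.065 and Gadd45g at 0.15) and without XX -KTS KO replicate 2 (Runx1 at 0.062, Sprr2d at 0.062, Kctd14 at 0.055 and Gadd45g at 0.079).

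The share of mutant cells with these transcripts was lower as well. Wnt6 was seen in 63.2% and 62.1% against 17.1% and 16.1% of thinned cells and Runx1 in 32.6% and 33.9% against 11.7% and 11.1%. Sprr2d was seen in 14.3% and 11.7% against 1.43% and 1.52%. All 3 were rarer in both mutant libraries, and the mutant shares of Wnt6 and Runx1 stayed above those in endothelial cells (2.08% to 6.13% and 0% to 3.01%), while those of Sprr2d lay within the 95% Wilson interval of their library's endothelial share (0% and 0.943% against 0% and 0%). Rspo1 was seen in 54.5% and 46.4% against 62.6% and 63.5%. A cell with 3 or more of the 10 genes was found in 68.5% and 64.3% against 25.8% and 32.4% of kept cells. Cells with 3 or more genes of both this and the pre-granulosa list made up 44.7% and 42.2% against 4.65% and 3.98%. In XX WT these were nearly all the cells with 3 or more pre-granulosa genes (46.3% and 44.5%). The lower shares of the 2 lists are therefore not separate counts of cells. Among endothelial cells the shares with 3 or more of the 10 genes were 3.01% and 5.19% against 4.17% and 2.99%.

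Of 12 genes of Sertoli cells, the testicular supporting cells, 1 rose and 3 fell, with a median of -1.10 over the 11 that had a UMI in the 4 libraries. Sox9, the key testis factor, was at 3.79 and 7.84 CPM against 7.20 and 4.80 CPM, and Amh, the anti-Müllerian hormone gene, at 0.328 and 0.376 CPM against 0.275 and 0.299 CPM, with adjusted p of 0.98 and 0.85 in edgeR. Sox10, the member without one, is counted as not called. Groups overlapped for Sox9 and were near 0 for Amh. Mro, a gene of the male supporting lineage, rose from 0.918 and 3.03 CPM to 13.9 and 10.6 CPM (log2 fold change 2.61 ± 0.43 (SE), edgeR adjusted p = 0.0038). Aard fell from 24.02 and 26.97 CPM to 3.69 and 3.84 CPM (log2 fold change -2.76, edgeR adjusted p = 1.8e-04), and Cst9, a cystatin gene with close copies, from 21.5 and 13.04 CPM to 1.32 and 0.548 CPM (log2 fold change -4.17, edgeR adjusted p = 0.0035). Dhh, the Desert hedgehog ligand gene named after its values were seen, had 32 and 49 UMIs against 2 and 0 UMIs. The remaining members, Sox8, Ptgds, Fgf9, Cyp26b1 and Dmrt1, did not pass. Cells with 3 or more of the 12 genes made up 0.432% and 0.599% against 0.0454% and 0.0608%, which is 2 cells in each mutant library. Without thinning they made up 3.44% and 7.33% against 2.74% and 0.500%. With the highest doublet scores left out 1 cell remained in each mutant library. In edgeR, adjusted p was over 0.05 with no cells of other types set aside (Aard at 0.12). Aard (from -2.76 to -1.19 with no cells of other types set aside), Dhh (from -4.89 to -3.06 with no cells of other types set aside) and Dhh (from -4.89 to -8.29 without XX -KTS KO replicate 1) moved by over 1.5 times on the log2 scale of the fit.

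Other genes among the 20 largest falls, all chosen with groups that do not overlap and a mean of at least 20 CPM in the higher group, were as follows. Wfdc1, a secreted protease inhibitor of the WAP family, was at 33.1 and 25.1 CPM against 0.0573 and 0 CPM (log2 fold change -9.70 ± 0.71 (SE), edgeR adjusted p = 1.5e-04). Nr2e3, an orphan nuclear receptor gene, was at 26.8 and 18.3 CPM against 1.07 and 0.665 CPM (log2 fold change -4.68 ± 0.57 (SE), edgeR adjusted p = 9.2e-04). Cyp11a1, the enzyme that cleaves the cholesterol side chain in the first step of steroid synthesis, was at 24.6 and 19.6 CPM against 1.33 and 0.515 CPM (log2 fold change -4.54 ± 0.58 (SE), edgeR adjusted p = 0.0011). In each the highest mutant library was more than 10 times below the lowest XX WT library. S1pr1, a receptor for sphingosine-1-phosphate, was at 30.4 and 18.3 CPM against 0.928 and 1.56 CPM (log2 fold change -4.30, edgeR adjusted p = 8.7e-04), and Adam8, a membrane metalloprotease, at 75.02 and 40.4 CPM against 2.81 and 2.09 CPM (log2 fold change -4.55, edgeR adjusted p = 0.0011). Col12a1, a fibril-associated collagen, was at 43.03 and 41.7 CPM against 2.06 and 2.36 CPM (log2 fold change -4.26, edgeR adjusted p = 0.010). Tnfrsf19, a receptor of the tumour necrosis factor family, was at 61.2 and 65.2 CPM against 5.66 and 5.73 CPM (log2 fold change -3.47, edgeR adjusted p = 3.9e-04). Sp5, Aldh3b1 (an aldehyde dehydrogenase), Clec2l, Lbhd2, Fndc5 and a predicted gene filled the rest of the 20, with log2 fold changes from -4.85 to -3.20. Calls also rested on single libraries, with edgeR's adjusted p over 0.05 without XX -KTS KO replicate 1 (Col12a1 at 0.083) and without XX -KTS KO replicate 2 (Col12a1 at 0.073). Tnfrsf19 (from -3.47 to -1.65 with no cells of other types set aside) moved by over 1.5 times on the log2 scale of the fit.

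Among genes with a mean of at least 20 CPM in the higher group, the largest rises were of genes at a low level in XX WT. Smoc2, a secreted calcium-binding matrix protein, was at 1.495 and 1.28 CPM against 26.8 and 18.5 CPM (log2 fold change 4.03 ± 0.31 (SE), edgeR adjusted p = 1.6e-04). Cck, the cholecystokinin peptide gene, was at 3.42 and 3.51 CPM against 40.03 and 78.7 CPM (log2 fold change 4.10 ± 0.49 (SE), edgeR adjusted p = 8.5e-04). Ecm1, an extracellular matrix protein, was at 7.11 and 8.41 CPM against 138 and 113 CPM (log2 fold change 4.02 ± 0.81 (SE), edgeR adjusted p = 0.0095). In all 3 the lowest mutant library was more than 10 times above the highest XX WT library. The WAP family genes Wfdc10 and Wfdc13, which lie in one cluster on chromosome 2, were at 22.5 and 23.3 CPM against 293 and 297 CPM (log2 fold change 3.69, edgeR adjusted p = 0.0067) and at 8.13 and 8.32 CPM against 71.9 and 45.8 CPM (log2 fold change 2.84, edgeR adjusted p = 0.0059). Of the 8 WAP family genes tested, 3 rose and 1, Wfdc1, fell (median 1.93 over the 7 with a UMI in the 4 libraries). Capn6, of the calpain family, was at 8.59 and 10.9 CPM against 108 and 114 CPM (log2 fold change 3.51, edgeR adjusted p = 6.8e-04). Dnm3, a dynamin, was at 4.07 and 5.06 CPM against 40.5 and 34.01 CPM (log2 fold change 3.03, edgeR adjusted p = 1.8e-04). Tmem178, the glutathione transferase gene Gsta3 (with close copies), the microfibril gene Mfap4, the semaphorin gene Sema6a, Twist1, Shisa3 and the chemokine gene Cxcl12 rose by 2.47 to 3.72 on the log2 scale. By edgeR's adjusted p, calls ended with no cells of other types set aside (Cxcl12 at 0.052 and Shisa3 at 0.054). Among fits that left out 1 library, edgeR's adjusted p exceeded 0.05 without XX WT replicate 1 (Ecm1 at 0.086, Wfdc10 at 0.064, Wfdc13 at 0.055, Twist1 at 0.12, Cxcl12 at 0.14 and Shisa3 at 0.16), without XX WT replicate 2 (Ecm1 at 0.066, Wfdc10 at 0.056, Twist1 at 0.082, Cxcl12 at 0.14 and Shisa3 at 0.18), without XX -KTS KO replicate 1 (Twist1 at 0.083, Cxcl12 at 0.066 and Shisa3 at 0.13) and without XX -KTS KO replicate 2 (Cxcl12 at 0.11 and Shisa3 at 0.070). Gm2694 (from 4.53 to 2.33 with no cells of other types set aside) moved by over 1.5 times on the log2 scale of the fit. The remaining 6 of the 20 were genes without a common name, Gm2694 among them at 2.06 and 1.80 CPM against 29.6 and 59.5 CPM (log2 fold change 4.53, edgeR adjusted p = 0.0021).

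Shares of cells were higher too. Smoc2 was seen in 0.756% and 0.632% against 11.2% and 7.24% of thinned cells and Cck in 1.39% and 1.33% against 11.5% and 18.5%, with 0% and 0% to 4.17% in endothelial cells. Wfdc10 was seen in 6.61% and 6.64% against 29.3% and 38.02% and Gm2694 in 0.972% and 1.06% against 9.49% and 18.9%. Both mutant libraries were above both XX WT libraries for all 4. Ecm1 was seen in 2.74% and 3.73% against 29.2% and 27.5% of kept cells and in 14.6% to 26.9% of endothelial cells, which hold it too. Both mutant shares were above that range of values and both XX WT shares below it. The mutant share lay within the 95% Wilson interval of its own library's endothelial share for Ecm1 in replicate 2 and for Cck and Gm2694 in replicate 1. It lay above that interval for the others of these 5 genes and libraries. In the mutant, the share of endothelial cells with Wfdc10 and Gm2694 was also higher, at 8.33% and 8.96% and 6.25% and 7.46%, but stayed under that of kept cells.

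**Figure D3:**
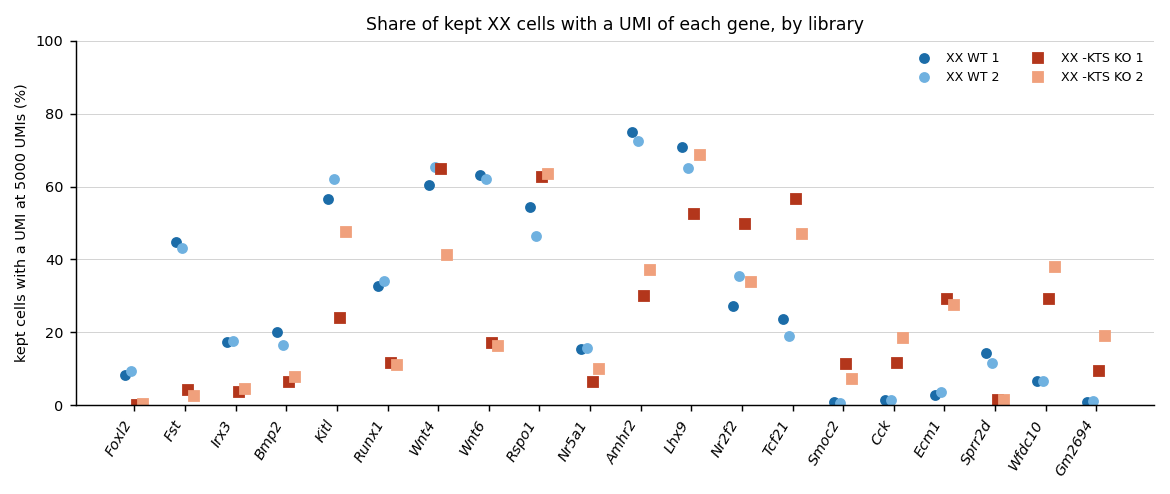
Percent of kept cells with at least 1 UMI of each of 20 genes after thinning to 5000 UMIs a cell, 1 point per library (circles, XX WT; squares, XX -KTS KO). Fst, Wnt6, Amhr2 and Runx1 are lower in XX -KTS KO (Wnt6 at 63.2% and 62.1% against 17.1% and 16.1%), Tcf21, Wfdc10, Ecm1 and Cck are higher, and the libraries of Lhx9 and Wnt4 overlap.

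Motifs were looked up in the promoters of the 40 genes with the largest changes, since the -KTS protein is known to bind GC-rich sites with the core GTGGGAG. RefSeq windows of 300 bases (250 before to 50 after the start site, GRCm38.p6) were matched for 28 of the 40 genes, and the 7 letters on either strand were present in 2 of 13 genes that fell and 2 of 15 that rose, beside 9.73% of all 32851 promoters and 10.96% of all 27025 genes of the table. The letters are a description of these windows and not a site. The window of Foxl2 holds none, and is shown with those of Tnfrsf19, at base -167, and Tmem178, at base -66 from the start site, as a fall and a rise with a match. Tnfrsf19 has 2 windows in the table, and the other holds no match. In the sequences the motif is in capitals, each on its gene's strand. Their coordinates are chr9:98955357-98955656 on the plus strand, chr14:61037938-61038237 on the minus strand and chr17:80944382-80944681 on the plus strand.
Foxl2: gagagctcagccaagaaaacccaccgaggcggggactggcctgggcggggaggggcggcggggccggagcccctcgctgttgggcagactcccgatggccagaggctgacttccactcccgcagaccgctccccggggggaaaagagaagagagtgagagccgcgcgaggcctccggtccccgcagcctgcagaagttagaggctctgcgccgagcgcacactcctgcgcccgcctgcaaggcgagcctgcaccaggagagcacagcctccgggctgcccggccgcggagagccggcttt
Tnfrsf19: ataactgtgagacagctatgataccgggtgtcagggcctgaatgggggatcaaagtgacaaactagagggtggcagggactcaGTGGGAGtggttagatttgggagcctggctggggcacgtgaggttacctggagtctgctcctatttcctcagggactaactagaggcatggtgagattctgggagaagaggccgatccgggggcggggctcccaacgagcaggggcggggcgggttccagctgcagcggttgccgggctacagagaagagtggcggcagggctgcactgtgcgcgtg
Tmem178: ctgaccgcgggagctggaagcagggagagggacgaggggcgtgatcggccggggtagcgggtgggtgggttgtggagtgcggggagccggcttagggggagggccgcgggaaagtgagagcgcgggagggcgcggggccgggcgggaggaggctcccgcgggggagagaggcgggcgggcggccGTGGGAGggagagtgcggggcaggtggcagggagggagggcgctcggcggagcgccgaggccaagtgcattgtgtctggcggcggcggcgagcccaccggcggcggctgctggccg

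Of 17 genes listed for the early, bipotential gonad, 2 rose and 2 fell, with a median of 0.05. Gata4, which is needed for the genital ridge to form, was at 94.4 and 93.04 CPM against 79.9 and 101 CPM (log2 fold change -0.05 ± 0.18 (SE), edgeR adjusted p = 0.88). Lhx9, a LIM homeobox factor, was at 375 and 357 CPM against 276 and 349.7 CPM (log2 fold change -0.23 ± 0.17 (SE), edgeR adjusted p = 0.42). Groups overlapped for Gata4 only, and XX -KTS KO replicate 1 was the lowest library for both. Nr5a1 (SF1), the nuclear receptor of steroidogenic and supporting cells, fell from 35.7 and 34.5 CPM to 15.6 and 21.4 CPM (log2 fold change -0.92 ± 0.23 (SE), edgeR adjusted p = 0.023) and was seen in 15.4% and 15.6% against 6.26% and 9.82% of thinned cells. Its mutant shares lay within the 95% Wilson interval of their library's endothelial share (2.26% and 5.66% against 0% and 2.99%). Podxl, the sialomucin podocalyxin, a known WT1 target of the kidney, fell from 117 and 121 CPM to 32.2 and 38.7 CPM (log2 fold change -1.75, edgeR adjusted p = 0.0033). Osr1, an odd-skipped factor of intermediate mesoderm, rose from 1.495 and 2.86 CPM to 26.4 and 11.7 CPM (log2 fold change 3.12, edgeR adjusted p = 0.0051), and the Polycomb gene Cbx2 from 10.6 and 11.7 CPM to 15.7 and 18.5 CPM (log2 fold change 0.62, edgeR adjusted p = 0.034). The bHLH gene Tcf21 was at 149.7 and 70.9 CPM against 363 and 207 CPM and missed the threshold (log2 fold change 1.37, edgeR adjusted p = 0.074), though the share of cells with a UMI was 23.7% and 18.9% against 56.7% and 46.9%, higher in both mutant libraries. Tcf21 had an adjusted p under 0.05 in DESeq2 (0.013) and with no filter on low counts (0.017). Its log2 fold change ran from 0.91 to 2.01 when 1 library was left out. Adjusted p in edgeR exceeded 0.05 with no cells of other types set aside (Cbx2 at 0.13) and with library totals in place of TMM (Cbx2 at 0.099). With 1 library fewer, edgeR's adjusted p was over 0.05 without XX WT replicate 1 (Nr5a1 at 0.11, Osr1 at 0.052 and Cbx2 at 0.20), without XX WT replicate 2 (Nr5a1 at 0.075 and Cbx2 at 0.097), without XX -KTS KO replicate 1 (Nr5a1 at 0.15 and Cbx2 at 0.069) and without XX -KTS KO replicate 2 (Cbx2 at 0.20).

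In the coelomic epithelium list, 4 of 15 genes rose and 2 fell (median 0.45). Upk3b, a uroplakin of mesothelium, rose from 59.2 and 50.7 CPM to 99.8 and 139 CPM (log2 fold change 1.12, edgeR adjusted p = 0.013). Gpc3, a glypican, rose from 142 and 205 CPM to 478 and 441 CPM (log2 fold change 1.41, edgeR adjusted p = 0.012). Nkain4 and Aldh1a2, the retinaldehyde dehydrogenase, rose by 1.67 and 0.76 on the log2 scale. The keratin gene Krt7 fell by 0.77, while Krt8, Krt18 and Krt19 did not pass. Muc16, the CA125 mucin, named after its values were seen, had 199 and 361 UMIs against 0 and 0 UMIs, and was at least 158-fold lower in the mutant (from a floor of 3 UMIs over both libraries). The call was lost with no cells of other types set aside (Gpc3 at 0.053 and Krt7 at 0.11), by edgeR's adjusted p. Left out in turn, single libraries ended calls by edgeR's adjusted p without XX WT replicate 1 (Upk3b at 0.058, Gpc3 at 0.11, Nkain4 at 0.13 and Krt7 at 0.24), without XX WT replicate 2 (Upk3b at 0.085 and Nkain4 at 0.089), without XX -KTS KO replicate 1 (Gpc3 at 0.063, Nkain4 at 0.13 and Krt7 at 0.12) and without XX -KTS KO replicate 2 (Upk3b at 0.095 and Krt7 at 0.17).

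Of 19 genes of interstitial progenitors, 3 rose and 1 fell, with a median of 0.49. Col1a1, the main collagen of connective tissue, rose from 27.9 and 50.99 CPM to 204 and 120.5 CPM (log2 fold change 2.04, edgeR adjusted p = 0.018). Nr2f1, an orphan receptor, and Dcn, the proteoglycan decorin, rose by 1.14 and 1.07. Nr2f2 was at 78.8 and 105 CPM against 177 and 100.3 CPM (log2 fold change 0.60, edgeR adjusted p = 0.13) and was seen in 27.3% and 35.5% against 49.6% and 33.9% of thinned cells. The groups overlapped for Nr2f2 on both measures, with XX -KTS KO replicate 1 the highest library. Its edgeR adjusted p was under 0.05 without XX -KTS KO replicate 2 (0.027). Hhip, a hedgehog target named after its values were seen, had 57 and 84 UMIs against 1 and 0 UMIs. The 14 genes of steroid synthesis had 1 rise and 2 falls (median -0.30): Star, which carries cholesterol into mitochondria, rose from 12.2 and 7.71 CPM to 35.1 and 44.1 CPM (log2 fold change 1.99, edgeR adjusted p = 0.0040), opposite to Cyp11a1, and Insl3, named after its values were seen, went from 43 UMIs in XX WT to 0, at least 12.1-fold lower. In edgeR, adjusted p was over 0.05 with no cells of other types set aside (Col1a1 at 0.055, Nr2f1 at 0.13, Dcn at 0.079, Hhip at 0.19 and Insl3 at 0.096), with library totals in place of TMM (Nr2f1 at 0.057 and Dcn at 0.061), at limits of 2000 genes and 5% mitochondrial UMIs a cell (Dcn at 0.058) and with each cell thinned to 5000 UMIs (Hhip at 0.11 and Insl3 at 0.14). Fits on fewer libraries gave an edgeR adjusted p over 0.05 without XX WT replicate 1 (Col1a1 at 0.14, Nr2f1 at 0.25, Dcn at 0.16 and Hhip at 0.098), without XX WT replicate 2 (Nr2f1 at 0.075, Dcn at 0.18, Hhip at 0.089 and Insl3 at 0.18), without XX -KTS KO replicate 1 (Col1a1 at 0.11, Nr2f1 at 0.19, Dcn at 0.17, Hhip at 0.16 and Insl3 at 0.17) and without XX -KTS KO replicate 2 (Nr2f1 at 0.083, Dcn at 0.12, Hhip at 0.17 and Insl3 at 0.14). Hhip (from -6.57 to -1.99 with no cells of other types set aside) and Insl3 (from -7.26 to -4.01 with no cells of other types set aside) moved by over 1.5 times on the log2 scale of the fit.

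WNT signalling drives ovarian fate, and its genes moved in both directions. Of 46 genes 7 rose and 9 fell (34.8% called, beside 15.8% over all genes tested), with a median of 0.02. Wnt4, the ligand needed for the ovary, was at 403 and 427 CPM against 435 and 205 CPM (log2 fold change -0.37, edgeR adjusted p = 0.58), with XX -KTS KO replicate 2 alone below the other libraries. Its share of cells was 60.5% and 65.2% against 64.8% and 41.2%. Sp5, a direct target of canonical WNT signalling, was at 61.1 and 62.8 CPM against 6.45 and 2.77 CPM (log2 fold change -3.74 ± 0.52 (SE), edgeR adjusted p = 0.0017). The target and effector genes Lef1 and Tcf7 and the feedback gene Znrf3, chosen after their values were seen, fell with it by 1.51, 1.03 and 1.19 on the log2 scale (edgeR adjusted p = 0.0021, 0.0067 and 0.019). Among ligands, Wnt9a fell from 6.61 and 6.61 CPM to 1.39 and 2.61 CPM. Among the 7 rises, the frizzled receptor gene Fzd4 rose from 3.49 and 5.37 CPM to 20.3 and 16.7 CPM (log2 fold change 2.06, edgeR adjusted p = 0.0031). Sfrp1, a secreted antagonist, rose from 33.8 and 50.7 CPM to 215 and 164 CPM (log2 fold change 2.17, edgeR adjusted p = 0.0017). Rspo3 rose from 3.33 and 1.81 CPM to 21.1 and 15.6 CPM (log2 fold change 2.84, edgeR adjusted p = 0.024). Calls that did not hold by edgeR's adjusted p were those with no cells of other types set aside (Znrf3 at 0.061). Calls also rested on single libraries, with edgeR's adjusted p over 0.05 without XX WT replicate 1 (Znrf3 at 0.066, Wnt9a at 0.10 and Rspo3 at 0.085), without XX WT replicate 2 (Znrf3 at 0.088, Wnt9a at 0.086 and Rspo3 at 0.15), without XX -KTS KO replicate 1 (Wnt9a at 0.16 and Rspo3 at 0.096) and without XX -KTS KO replicate 2 (Tcf7 at 0.059, Znrf3 at 0.13 and Rspo3 at 0.061).

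In the BMP, TGF-beta and activin pathways, 7 of 41 genes rose and 3 fell (median 0.19). The 3 falls were Fst, Inhbb and Amhr2. Inhbb, the beta B subunit of activin and inhibin, was at 30.5 and 35.5 CPM against 9.47 and 6.93 CPM (log2 fold change -2.01 ± 0.24 (SE), edgeR adjusted p = 8.7e-04). Amhr2, the receptor of anti-Müllerian hormone, was at 334 and 303 CPM against 109 and 117 CPM (log2 fold change -1.49 ± 0.15 (SE), edgeR adjusted p = 3.5e-04) and was seen in 74.9% and 72.6% against 29.9% and 37.2% of thinned cells. In both genes the groups did not overlap, as in every gene called. Id3, a target of BMP signals, rose from 294 and 351 CPM to 812 and 518 CPM (log2 fold change 1.04, edgeR adjusted p = 0.036), and the inhibitory Smad6 and the ligand Tgfb3 by 0.91 and 1.46. By edgeR's adjusted p, calls ended with no cells of other types set aside (Id3 at 0.12, Tgfb3 at 0.072 and Smad6 at 0.28) and with library totals in place of TMM (Tgfb3 at 0.056 and Smad6 at 0.060). Among fits that left out 1 library, edgeR's adjusted p exceeded 0.05 without XX WT replicate 1 (Fst at 0.052, Id3 at 0.21, Tgfb3 at 0.20 and Smad6 at 0.17), without XX WT replicate 2 (Id3 at 0.11, Tgfb3 at 0.058 and Smad6 at 0.14), without XX -KTS KO replicate 1 (Fst at 0.084, Id3 at 0.23, Tgfb3 at 0.12 and Smad6 at 0.27) and without XX -KTS KO replicate 2 (Fst at 0.11 and Tgfb3 at 0.089). Id3 (from 1.04 to 0.68 without XX -KTS KO replicate 1), Smad6 (from 0.91 to 0.49 with no cells of other types set aside) and Smad6 (from 0.91 to 0.46 without XX -KTS KO replicate 1) moved by over 1.5 times on the log2 scale of the fit.

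Of 21 FGF pathway genes, 7 rose and 1 fell (median 0.17). The fall was of the receptor gene Fgfr2, from 57.3 and 56.1 CPM to 17.9 and 17.4 CPM (log2 fold change -1.68 ± 0.17 (SE), edgeR adjusted p = 4.4e-04). Fgf10, a mesenchymal ligand, rose from 1.04 and 1.57 CPM to 6.02 and 9.52 CPM (log2 fold change 2.57, edgeR adjusted p = 0.0058), and Sulf2, which trims heparan sulphate, from 14.5 and 16.4 CPM to 43.9 and 37.8 CPM (log2 fold change 1.40, edgeR adjusted p = 0.0019). Of 12 hedgehog genes, 1 rose and 3 fell (median -0.10). The rise was of Gas1, a co-receptor, from 94.1 and 117 CPM to 449.9 and 320.2 CPM (log2 fold change 1.87, edgeR adjusted p = 0.0010), and the falls included those of Dhh and Hhip, at under 5 CPM in every library and named after their values were seen. Of 20 Notch genes, 5 rose and 2 fell (median 0.06). Dlk1, a non-canonical ligand, Hes1, a target, and the receptor Notch3 rose by 1.41, 1.37 and 0.99. Adjusted p in edgeR exceeded 0.05 with no cells of other types set aside (Hhip at 0.19, Dlk1 at 0.063 and Notch3 at 0.073) and with each cell thinned to 5000 UMIs (Hhip at 0.11). With 1 library fewer, edgeR's adjusted p was over 0.05 without XX WT replicate 1 (Fgf10 at 0.060, Hhip at 0.098, Dlk1 at 0.11, Hes1 at 0.056 and Notch3 at 0.11), without XX WT replicate 2 (Hhip at 0.089 and Hes1 at 0.098), without XX -KTS KO replicate 1 (Hhip at 0.16, Dlk1 at 0.091, Hes1 at 0.052 and Notch3 at 0.095) and without XX -KTS KO replicate 2 (Hhip at 0.17 and Hes1 at 0.081). Dhh (from -4.89 to -3.06 with no cells of other types set aside), Dhh (from -4.89 to -8.29 without XX -KTS KO replicate 1) and Hhip (from -6.57 to -1.99 with no cells of other types set aside) moved by over 1.5 times on the log2 scale of the fit.

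In the IGF and PDGF list 1 of 21 rose and 4 fell (median 0.37). Igfbp2, an IGF-binding protein, was at 384 and 344 CPM against 45.6 and 42.5 CPM (log2 fold change -3.05 ± 0.27 (SE), edgeR adjusted p = 2.6e-04). Igfbp7 was at 18.4 and 14.9 CPM against 1.16 and 2.53 CPM (log2 fold change -3.20, edgeR adjusted p = 0.011), and the imprinted RNA H19 at 376 and 514 CPM against 179.8 and 132 CPM (log2 fold change -1.51, edgeR adjusted p = 0.0070). Pdgfa, a ligand gene, rose from 43.95 and 36.8 CPM to 98.9 and 96.4 CPM (log2 fold change 1.27, edgeR adjusted p = 0.014). Genes of the retinoic acid pathway, which acts on the germ cells of the ovary, had 5 rises and 1 fall of 18 (median 0.26). Aldh1a1, a retinaldehyde dehydrogenase, rose from 13.1 and 14.1 CPM to 60.5 and 54.3 CPM (log2 fold change 2.08 ± 0.20 (SE), edgeR adjusted p = 3.4e-04). Crabp1, which binds retinoic acid, rose from 4.11 and 8.87 CPM to 46.2 and 15.1 CPM (log2 fold change 2.24, edgeR adjusted p = 0.042). The call was lost with no cells of other types set aside (Crabp1 at 0.054), by edgeR's adjusted p. Left out in turn, single libraries ended calls by edgeR's adjusted p without XX WT replicate 1 (Igfbp7 at 0.053, Pdgfa at 0.064 and Crabp1 at 0.24), without XX WT replicate 2 (Pdgfa at 0.11 and Crabp1 at 0.077), without XX -KTS KO replicate 1 (Igfbp7 at 0.093, Pdgfa at 0.068 and Crabp1 at 0.29) and without XX -KTS KO replicate 2 (H19 at 0.065 and Pdgfa at 0.060). Crabp1 (from 2.24 to 1.21 without XX -KTS KO replicate 1) moved by over 1.5 times on the log2 scale of the fit.

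Of 26 collagen genes, 5 rose and 5 fell (median 0.33). Col2a1, the cartilage collagen, rose from 0.380 and 0.602 CPM to 10.1 and 4.29 CPM (log2 fold change 3.86, edgeR adjusted p = 0.0024), and Col4a6, of basement membranes, from 1.82 and 3.27 CPM to 11.5 and 8.41 CPM (log2 fold change 1.96, edgeR adjusted p = 0.0027). Col6a1 and Col6a2, partners in one heterotrimer, fell together by 1.86 and 1.41. Of 31 laminin and integrin genes, 4 rose and 7 fell (median -0.15). Lama1, a laminin of embryonic basement membranes, fell from 13.99 and 13.1 CPM to 4.36 and 4.50 CPM (log2 fold change -1.61 ± 0.17 (SE), edgeR adjusted p = 4.6e-04). The linker Nid1 and the laminin receptor subunit Itga6 fell by 1.02 and 1.76. Itga8, a receptor subunit for nephronectin, rose from 6.96 and 12.7 CPM to 28.3 and 25.7 CPM (log2 fold change 1.46, edgeR adjusted p = 0.0040), and Itga9 and Agrn rose by 1.17 and 0.71. In edgeR, adjusted p was over 0.05 with no cells of other types set aside (Itga9 at 0.088 and Agrn at 0.11). Fits on fewer libraries gave an edgeR adjusted p over 0.05 without XX WT replicate 1 (Col6a2 at 0.053, Itga6 at 0.064, Itga9 at 0.13 and Agrn at 0.072), without XX WT replicate 2 (Col6a2 at 0.10 and Itga6 at 0.058), without XX -KTS KO replicate 1 (Col12a1 at 0.083, Col6a2 at 0.14, Itga9 at 0.087 and Agrn at 0.051) and without XX -KTS KO replicate 2 (Col12a1 at 0.073, Col6a2 at 0.083, Itga6 at 0.11 and Itga9 at 0.057).

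Of 31 cell junction genes, 3 rose and 6 fell (median 0.37). Gja1, the gap junction protein connexin 43, fell from 72.5 and 69.5 CPM to 23.3 and 18.1 CPM (log2 fold change -1.78, edgeR adjusted p = 0.0052), and Cgn, the tight junction protein cingulin, from 53.9 and 56.2 CPM to 19.4 and 21.9 CPM (log2 fold change -1.42, edgeR adjusted p = 0.012). Gjb5, another connexin, the cadherin Cdh3 and the polarity gene Pard6b rose by 1.53, 0.92 and 0.82. Calls that did not hold by edgeR's adjusted p were those with no cells of other types set aside (Gjb5 at 0.15 and Pard6b at 0.052). Calls also rested on single libraries, with edgeR's adjusted p over 0.05 without XX WT replicate 1 (Cgn at 0.055, Cdh3 at 0.065 and Pard6b at 0.055), without XX WT replicate 2 (Cgn at 0.056 and Pard6b at 0.100), without XX -KTS KO replicate 1 (Cgn at 0.089) and without XX -KTS KO replicate 2 (Gja1 at 0.052, Cgn at 0.063, Cdh3 at 0.054 and Pard6b at 0.075). Gjb5 (from 1.53 to 0.80 with no cells of other types set aside) moved by over 1.5 times on the log2 scale of the fit.

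Cell cycle inhibitors and D cyclins fell where they changed, in 5 of 15 genes with 0 rises in edgeR (1 at an unadjusted p under 0.05 and 1 in DESeq2; median -0.22). Cdkn1c (p57), an inhibitor of cyclin-dependent kinases, went from 2374 and 2055 CPM to 1201 and 1059 CPM (log2 fold change -0.97 ± 0.20 (SE), edgeR adjusted p = 0.0099). Ccnd2, the D cyclin of granulosa cells, went from 132 and 124 CPM to 54.3 and 43.1 CPM (log2 fold change -1.40 ± 0.24 (SE), edgeR adjusted p = 0.0045), and Ccnd1 fell by 1.06. Cdkn1b (p27) and Cdkn2b, named after their values were seen, fell by 0.73 and 3.39. Of the 30 genes of mitosis and S phase none passed the test with edgeR in either direction (median 0.03, range -0.48 to 0.36; 2 fell at an unadjusted p under 0.05 and 1 in DESeq2). By edgeR's adjusted p, calls ended with no cells of other types set aside (Cdkn1b at 0.10 and Cdkn2b at 0.43) and with each cell thinned to 5000 UMIs (Ccnd1 at 0.051). Among fits that left out 1 library, edgeR's adjusted p exceeded 0.05 without XX WT replicate 1 (Cdkn1c at 0.075, Ccnd1 at 0.12, Cdkn1b at 0.088 and Cdkn2b at 0.052), without XX WT replicate 2 (Ccnd1 at 0.073, Cdkn1b at 0.12 and Cdkn2b at 0.075), without XX -KTS KO replicate 1 (Ccnd1 at 0.11, Cdkn1b at 0.100 and Cdkn2b at 0.13) and without XX -KTS KO replicate 2 (Cdkn1c at 0.081, Ccnd1 at 0.15, Cdkn1b at 0.13 and Cdkn2b at 0.088). Cdkn2b (from -3.39 to -0.95 with no cells of other types set aside) and Cdkn2b (from -3.39 to -7.36 with each cell thinned to 5000 UMIs) moved by over 1.5 times on the log2 scale of the fit.

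Hox genes, which set position along the body, rose where they changed. In edgeR 7 of 30 rose (23.3%, beside 6.52% over all genes tested). In edgeR 0 fell (1 at an unadjusted p under 0.05 and 1 in DESeq2), and the median was 0.88. Hoxc8 went from 26.2 and 38.6 CPM to 129.7 and 81.3 CPM (log2 fold change 1.70, edgeR adjusted p = 0.0022), and Hoxb7 and Hoxc9 rose by 1.06 and 1.20. Of 31 imprinted genes, 9 rose and 4 fell (median 0.28), with Plagl1, a zinc finger gene, rising from 6.18 and 14.96 CPM to 60.2 and 28.2 CPM (log2 fold change 2.06, edgeR adjusted p = 0.013). Mirg rose by 1.03 and Peg13 fell by 0.68; Dlk1, H19 and Cdkn1c belong to this list too. Adjusted p in edgeR exceeded 0.05 with the highest doublet scores left out (Peg13 at 0.052), with no cells of other types set aside (Hoxb7 at 0.13, Hoxc9 at 0.11, Plagl1 at 0.11, Mirg at 0.16, Peg13 at 0.086 and Dlk1 at 0.063) and with library totals in place of TMM (Mirg at 0.061 and Peg13 at 0.058). With 1 library fewer, edgeR's adjusted p was over 0.05 without XX WT replicate 1 (Hoxb7 at 0.12, Hoxc9 at 0.20, Plagl1 at 0.082, Mirg at 0.22, Peg13 at 0.11, Dlk1 at 0.11 and Cdkn1c at 0.075), without XX WT replicate 2 (Hoxb7 at 0.059, Hoxc9 at 0.16 and Peg13 at 0.17), without XX -KTS KO replicate 1 (Hoxb7 at 0.081, Hoxc9 at 0.15, Plagl1 at 0.095, Mirg at 0.22, Peg13 at 0.098 and Dlk1 at 0.091) and without XX -KTS KO replicate 2 (Hoxb7 at 0.052, Hoxc9 at 0.13, Peg13 at 0.21, H19 at 0.065 and Cdkn1c at 0.081). Plagl1 (from 2.06 to 1.31 with no cells of other types set aside) moved by over 1.5 times on the log2 scale of the fit.

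Among 28 genes described as WT1 targets in other organs, 3 rose and 6 fell (median -0.32). Nr0b1, Podxl and Amhr2 were the largest falls that reached 5 CPM. Pdgfa, Spry1, an FGF feedback inhibitor, and Aldh1a2 rose by 1.27, 1.26 and 0.76 on the log2 scale. The call was lost with no cells of other types set aside (Spry1 at 0.090), by edgeR's adjusted p. Left out in turn, single libraries ended calls by edgeR's adjusted p without XX WT replicate 1 (Spry1 at 0.12 and Pdgfa at 0.064), without XX WT replicate 2 (Spry1 at 0.063 and Pdgfa at 0.11), without XX -KTS KO replicate 1 (Spry1 at 0.12 and Pdgfa at 0.068) and without XX -KTS KO replicate 2 (Pdgfa at 0.060). Spry1 (from 1.26 to 0.79 without XX -KTS KO replicate 1) moved by over 1.5 times on the log2 scale of the fit.

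Of 24 cholesterol synthesis genes 1 changed, with Hmgcs1 lower by 0.63 (median -0.07), and of 26 glycolysis genes 1, the hexokinase gene Hk1, fell from 26.8 and 31.7 CPM to 6.80 and 6.85 CPM (median 0.02). Digestive enzyme genes, some of which are transcribed in the early gonad, had 2 rises and 5 falls of 14 (median -1.61). Klk1, a kallikrein, fell from 19.6 and 14.7 CPM to 1.17 and 0.631 CPM (log2 fold change -4.23, edgeR adjusted p = 6.6e-04). Pnlip, a lipase, fell by 2.16, while Cpa1 rose from 229 and 169 CPM to 505 and 344 CPM (log2 fold change 1.09, edgeR adjusted p = 0.013). Immediate early genes, which respond to tissue handling, had 1 rise and 2 falls of 21 (median 0.51). That is 14.3% called, no more than the 15.8% over all genes tested. Ier5 and Klf2 were lower by 1.15 and 1.60 and Socs3 higher by 1.20. Of 14 heat shock genes 3 fell (21.4%, beside 9.28% over all genes tested, median -0.26). Among them were Hspb1, from 144 and 118 CPM to 38.8 and 41.3 CPM, and Bag3, a co-chaperone, by 1.46. With no cells of other types set aside, the fold change of Klf2 turned to 0.072 on the log2 scale. In edgeR, adjusted p was over 0.05 with no cells of other types set aside (Hmgcs1 at 0.053, Hk1 at 0.081, Pnlip at 0.068 and Socs3 at 0.066), with library totals in place of TMM (Socs3 at 0.056) and with each cell thinned to 5000 UMIs (Hmgcs1 at 0.070). Fits on fewer libraries gave an edgeR adjusted p over 0.05 without XX WT replicate 1 (Hmgcs1 at 0.17, Pnlip at 0.086, Klf2 at 0.12 and Socs3 at 0.16), without XX WT replicate 2 (Hmgcs1 at 0.075, Cpa1 at 0.098, Pnlip at 0.18, Klf2 at 0.15 and Socs3 at 0.15), without XX -KTS KO replicate 1 (Hmgcs1 at 0.19, Cpa1 at 0.098, Pnlip at 0.16, Klf2 at 0.23 and Socs3 at 0.13) and without XX -KTS KO replicate 2 (Hmgcs1 at 0.055, Pnlip at 0.20, Klf2 at 0.10 and Socs3 at 0.13). Hk1 (from -2.10 to -0.90 with no cells of other types set aside) moved by over 1.5 times on the log2 scale of the fit.

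Markers of other cell types were also tested in the kept cells. Of 12 endothelial and 12 erythroid genes 0 passed edgeR (medians -0.35 and -0.53), with 3 and 1 at an unadjusted p under 0.05 and 1 and 0 in DESeq2. Of the rest, 1 of 11 germ cell genes fell (median 0.67), 1 of 7 immune genes fell (median 0.81), and 1 of 11 perivascular genes, Notch3, rose (median -0.0026). The shares called were 9.09%, 14.3% and 9.09%, under the 15.8% over all genes tested. The summed levels of the lists were 118 and 129 CPM against 159 and 139 CPM for endothelial, 5.85 and 5.24 CPM against 2.79 and 2.64 CPM for immune and 77.2 and 81.2 CPM against 76.6 and 78.7 CPM for perivascular genes. Dnd1, the germ cell gene that fell, was at 17.4 and 11.3 CPM against 2.20 and 5.999 CPM (log2 fold change -1.81, edgeR adjusted p = 0.013), and Pf4, the immune gene, at 4.84 and 4.01 CPM against 1.20 and 0.582 CPM. Of 11 genes of the mesonephric tubules and duct, tissue next to the gonad, 3 fell (median 0.02, summed level 168 and 153 CPM against 98.8 and 83.3 CPM). Calb1 was at 114 and 74.9 CPM against 17.4 and 18.96 CPM (log2 fold change -2.38, edgeR adjusted p = 7.9e-04), Bcam fell by 0.90, and Ret had 19 and 46 UMIs against 0 and 0 UMIs, at least 18.3-fold lower. Of 10 adrenal, neural and muscle genes, 2 rose (median 1.21 over the 8 with a UMI in the 4 libraries, summed level 6.05 and 8.49 CPM against 12.8 and 8.51 CPM): Stmn2 was at 0.367 and 0.564 CPM against 3.86 and 1.13 CPM, and Dbh had 0 and 0 UMIs against 13 and 5 UMIs, at least 7.11-fold higher. With perivascular and mesonephric cells also left out, 2888 genes differed in all, against 2847 with them kept. Beyond this fit and the one with no cells of other types set aside, the part of these other cells in the results was not tested. With no cells of other types set aside, the fold changes of Pf4 and Stmn2 turned to 1.48 and -0.58 on the log2 scale. Calls that did not hold by edgeR's adjusted p were those with no cells of other types set aside (Dnd1 at 0.92, Notch3 at 0.073, Bcam at 0.056 and Dbh at 0.069) and at limits of 2000 genes and 5% mitochondrial UMIs a cell (Pf4 at 0.18). Calls also rested on single libraries, with edgeR's adjusted p over 0.05 without XX WT replicate 1 (Dnd1 at 0.091, Pf4 at 0.14, Notch3 at 0.11, Stmn2 at 0.17 and Dbh at 0.15), without XX WT replicate 2 (Pf4 at 0.087, Bcam at 0.068, Stmn2 at 0.088 and Dbh at 0.17), without XX -KTS KO replicate 1 (Pf4 at 0.080, Notch3 at 0.095, Ret at 0.058, Stmn2 at 0.21 and Dbh at 0.16) and without XX -KTS KO replicate 2 (Pf4 at 0.20, Bcam at 0.081 and Dbh at 0.085). Dnd1 (from -1.81 to -0.12 with no cells of other types set aside), Bcam (from -0.90 to -0.59 without XX WT replicate 2), Ret (from -7.92 to -4.10 with no cells of other types set aside) and Stmn2 (from 2.42 to 1.26 without XX -KTS KO replicate 1) moved by over 1.5 times on the log2 scale of the fit.

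**Figure D4:**
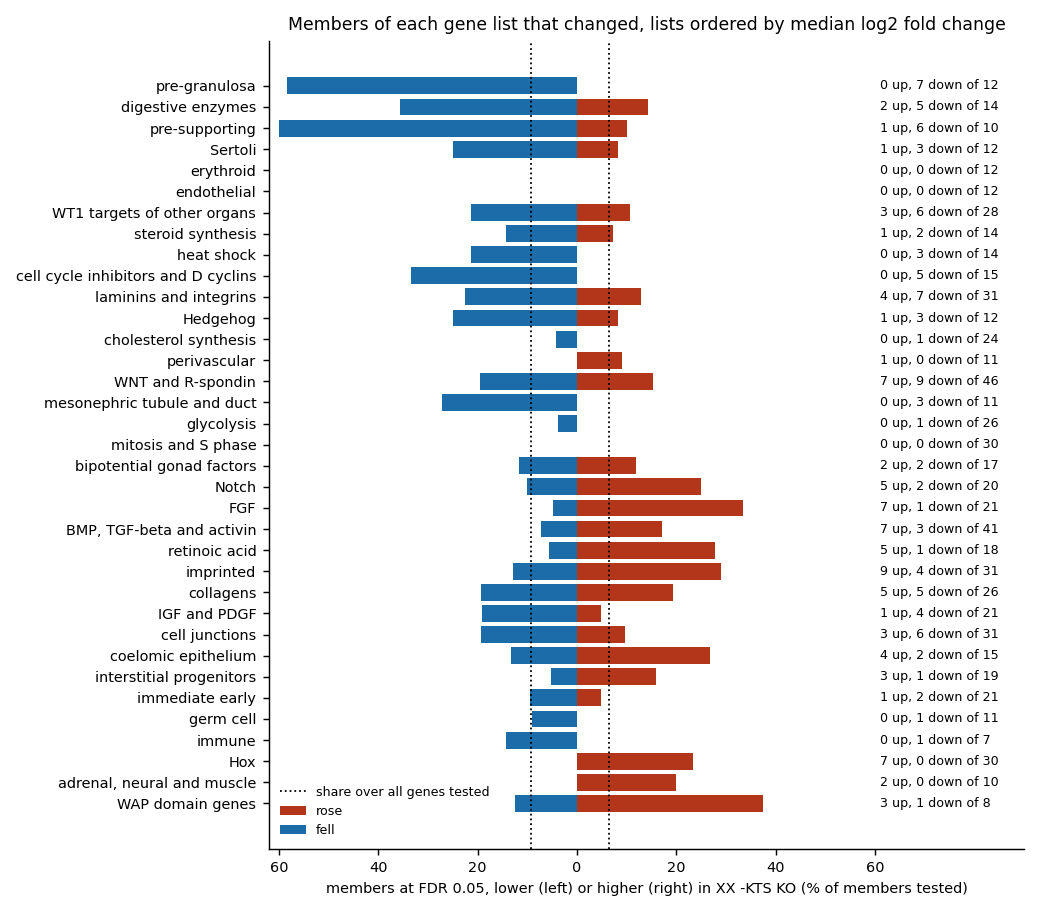
Percent of the tested members of each gene list that fell (blue, to the left) or rose (red, to the right) at an edgeR adjusted p under 0.05, with the counts at the right and the lists in order of their median log2 fold change. Members with no UMI in the 4 libraries count as not called, and dotted lines mark the shares over all genes tested, 9.28% lower and 6.52% higher; the pre-granulosa list, first in the order, has 7 of 12 lower, and the list of mitosis and S phase has 0 of 30 in either direction.

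The same comparison was made within cells split by Nr2f2, of at least 5000 UMIs, as cells without and with a UMI of that gene after thinning. These are ranges of cells, not types. Of 16994 genes tested in cells without an Nr2f2 UMI, 2869 (16.9%) differed, 1268 (7.46%) higher and 1601 (9.42%) lower. Of 16237 tested in cells with one, 1676 (10.3%) differed, 561 (3.46%) higher and 1115 (6.87%) lower. Leaving out XX WT replicate 1, XX WT replicate 2, XX -KTS KO replicate 1 or XX -KTS KO replicate 2 gave 1151, 1360, 1368 and 1144 genes in the former and 683, 687, 452 and 751 in the latter. Pre-granulosa genes fell in both ranges, in 7 of 12 without and 8 of 12 with an Nr2f2 UMI. Foxl2 had a log2 fold change of -5.82 ± 0.81 (SE) without and -6.09 ± 0.82 with an Nr2f2 UMI, Aqp5 of -6.14 ± 0.46 and -5.70 ± 0.47, and Rhox8 of -9.76 ± 0.80 in the former. The XX WT level of Foxl2 was 22.9 ± 1.99 CPM (SD, n = 2) without and 15.9 ± 5.37 CPM (SD, n = 2) with an Nr2f2 UMI. Of the rises, Smoc2 had 4.26 ± 0.30 and 3.73 ± 0.46 and Cck 4.40 ± 0.51 and 3.57 ± 0.50. All of these passed the test in each range named. Differences between the ranges were not tested.

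Besides the genes of all kept cells, 1 large rise was named in each range. Cbln1, a secreted synaptic organiser, rose in cells without an Nr2f2 UMI from 0.833 and 0.854 CPM to 16.1 and 25.7 CPM (log2 fold change 4.62 ± 0.47 (SE), edgeR adjusted p = 3.4e-04). Nefm, a neurofilament gene, rose in cells with one from 1.75 and 3.09 CPM to 28.1 and 42.8 CPM (log2 fold change 3.83 ± 1.02 (SE), edgeR adjusted p = 0.039). Of the 19 interstitial genes, 7 rose and 1 fell in cells without an Nr2f2 UMI, while 0 passed edgeR in cells with one (4 higher and 1 lower at an unadjusted p under 0.05, and 3 higher in DESeq2). The 19 include Nr2f2 itself, whose level in each range depends on the split. In cells with an Nr2f2 UMI, adjusted p in edgeR exceeded 0.05 with each cell thinned to 5000 UMIs (Nefm at 0.058), without XX WT replicate 1 (Nefm at 0.22), without XX WT replicate 2 (Nefm at 0.15), without XX -KTS KO replicate 1 (Nefm at 0.10) and without XX -KTS KO replicate 2 (Nefm at 0.13).

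Effects of the mutation were compared with those of XY embryos, which have the same genotypes, by the difference of the fold changes (XX minus XY). Of 18010 genes tested, 552 (3.06%) differed between the sexes, 319 more positive and 233 more negative in XX. Of the 2847 genes called in XX, 255 (8.96%) were among them. The number that differed between the sexes was 79 without XX WT replicate 1, 116 without XX WT replicate 2, 205 without XX -KTS KO replicate 1, 118 without XX -KTS KO replicate 2, 167 without XY WT replicate 1, 677 without XY WT replicate 2, 112 without XY -KTS KO replicate 1 and 109 without XY -KTS KO replicate 2. Smoc2 was at 52.2 and 35.6 CPM against 24.2 and 33.7 CPM in the 2 XY WT and 2 XY -KTS KO libraries, above both XX WT libraries in both genotypes (difference 4.64 ± 0.41 (SE), edgeR adjusted p = 0.0020). Fgfr2 was at 11.2 and 12.4 CPM against 14.3 and 13.02 CPM in XY (difference -1.90 ± 0.24 (SE), edgeR adjusted p = 0.0061), and XX WT was the highest of the 4 groups. Aard fell in both sexes, in XY from 557 and 433 CPM to 6.35 and 5.30 CPM (difference 3.65 ± 0.30 (SE), edgeR adjusted p = 0.0017). These 3 kept their call in each of the 17 alternatives. Wnt4, at 33.3 and 70.6 CPM against 313 and 228 CPM in XY, had a difference of -2.76 ± 0.58 (SE), edgeR adjusted p = 0.036. Adjusted p in edgeR exceeded 0.05 with no cells of other types set aside (Wnt4 at 0.076). With 1 library fewer, edgeR's adjusted p was over 0.05 without XX WT replicate 1 (Wnt4 at 0.11), without XX WT replicate 2 (Wnt4 at 0.11), without XX -KTS KO replicate 2 (Wnt4 at 0.12), without XY WT replicate 1 (Wnt4 at 0.11), without XY -KTS KO replicate 1 (Wnt4 at 0.13) and without XY -KTS KO replicate 2 (Wnt4 at 0.077). Foxl2, at 0.523 and 1.46 CPM against 0.156 and 0.0892 CPM in XY, had a difference of -2.93 ± 1.25 (SE), edgeR adjusted p = 0.25. Fst was at 1.29 and 10.6 CPM against 14.4 and 6.64 CPM in XY and had a difference of -6.02 ± 1.49 (SE), edgeR adjusted p = 0.063. Neither passed.

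**Figure D5:**
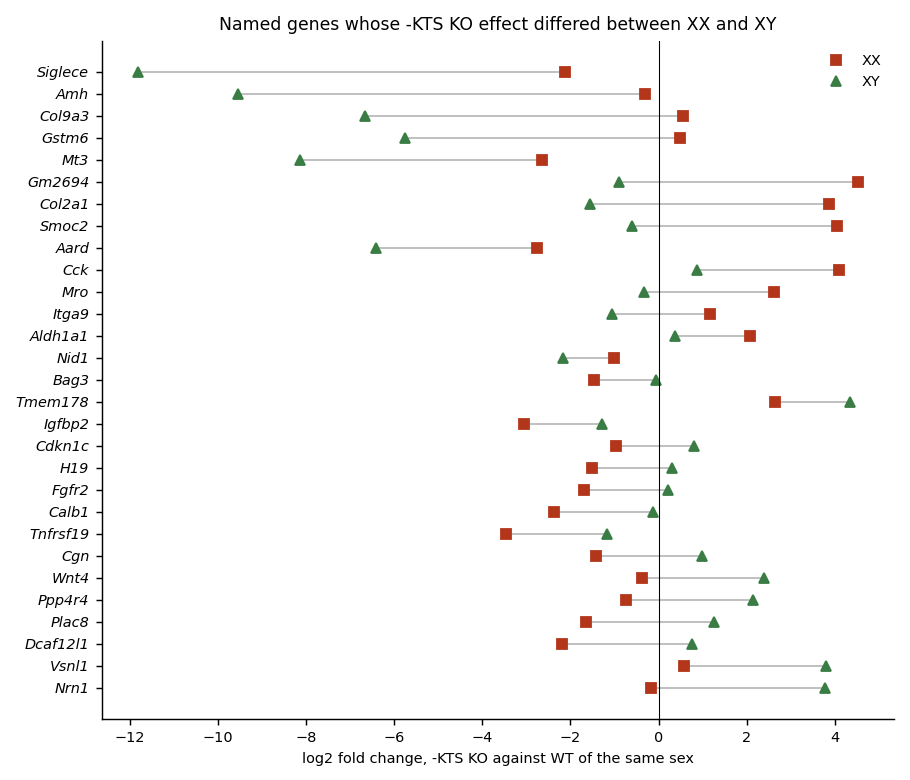
Log2 fold change of -KTS KO over WT (horizontal axis) in XX (squares) and in XY gonads (triangles) for the 29 named genes whose difference between the sexes passed an edgeR adjusted p of 0.05, 1 row a gene, in order of that difference. Smoc2 lies at 4.03 in XX and -0.60 in XY and Wnt4 at -0.37 and 2.38.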

How the data were processed

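The authors deposited, for each library, a matrix of UMI counts per gene and cell barcode, made with Cell Ranger 6.0 on mm10 per the submitters' processing notes. The labels name a version of the capture kit other than the one in the study's methods, so none is given. Deposited counts were used unscaled. Cells of 1000 genes or more, with no more than 10% of UMIs from mitochondria, were kept unless Dppa5a, Pou5f1, Ddx4 and Dazl summed to 10 UMIs or more (germ), Cdh5 and Tie1 to 3 or more (endothelial), Tyrobp and Fcer1g to 3 or more (immune), or globins passed 20% (erythroid). No doublet caller was applied except as an alternative. UMIs were summed per library and tested in edgeR 4.0.16 (R 4.3.3) with TMM, filterByExpr and the quasi-likelihood test over 12 libraries in 6 groups, which share 1 estimate of the spread, with Benjamini-Hochberg adjustment at 0.05. Standard errors are the fold change over the root of F. Only the edgeR and DESeq2 fits were tried on simulated counts with known changes, drawn with the same spread for every gene.

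Shares of cells used cells thinned to 5000 UMIs (numpy 2.4.6), with cells below left out: 291, 319, 194 and 1510 in XX WT replicates 1 and 2 and XX -KTS KO replicates 1 and 2. The members and gene lists were chosen with earlier results of these data known. Named genes were a fixed set, the 20 largest rises and 20 largest falls among genes called with groups apart and a mean of at least 20 CPM in the higher group, and up to 3 rises and 3 falls of at least 5 CPM in each of the 35 lists. In the Nr2f2 ranges and the comparison of the sexes, the 5 largest of each direction were added. Others are said to be chosen after their values were seen, and a few genes within these rules are not reported here. Of 32285 features 32235 had a position in GENCODE M21. Alternatives were DESeq2 1.42.0, no TMM, no filter on counts, the 4 XX libraries alone, other cell filters, doublet scores from scanpy 1.11.5, thinned sums, a replicate block and each library left out.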

Additional observations from a re-analysis of the deposited data

Results flagged for a closer look

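For 29 named genes the effect of the mutation differed between XX and XY embryos in edgeR's test of the difference (XX minus XY, log2), out of 552 genes in all. In 6 of them the call held under each of the 17 alternatives: Smoc2 (4.64), Aard (3.65), Fgfr2 (-1.90), Siglece (9.69), Vsnl1 (-3.22) and Plac8 (-2.90). Siglece, a sialic acid-binding lectin gene, was at 0.210 and 0.160 CPM in XX WT, 0.0344 and 0.0499 in XX -KTS KO, 24.6 and 28.7 in XY WT, and 0.0130 and 0 in XY -KTS KO, under 1 CPM in every library but those of XY WT. Vsnl1, a neuronal calcium sensor, was at 16.3 and 13.8 CPM in XX WT, 24.4 and 20.7 in XX -KTS KO, 2.02 and 2.12 in XY WT, and 34.1 and 23.7 in XY -KTS KO, and was higher in XY mutants than in XY WT. Plac8 was at 42.7 and 76.6 CPM in XX WT, 23.00 and 15.2 in XX -KTS KO, 7.50 and 8.96 in XY WT, and 20.9 and 18.6 in XY -KTS KO, lower in XX mutants and higher in XY mutants than in their own WT libraries.

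The other 23 lost the call under at least 1 alternative. More positive in XX were Cck (3.22), Gm2694 (5.44), Mro (2.95), Aldh1a1 (1.71), Col2a1 (5.42), Nid1 (1.15) and Itga9 (2.24), and, among the 5 largest differences in this direction, Amh (9.24), Col9a3 (7.21), Gstm6 (6.24) and Mt3 (5.49). More negative in XX were Wnt4 (-2.76), Tmem178 (-1.69), Tnfrsf19 (-2.30), Igfbp2 (-1.76), H19 (-1.81), Cgn (-2.40), Cdkn1c (-1.78), Bag3 (-1.41) and Calb1 (-2.24), and, among the 5 largest, Nrn1 (-3.94), Dcaf12l1 (-2.96) and Ppp4r4 (-2.89). Amh, the anti-Müllerian hormone gene, was at 0.328 and 0.376 CPM in XX WT, 0.275 and 0.299 in XX -KTS KO, 195 and 68.2 in XY WT, and 0.194 and 0.156 in XY -KTS KO. Calls were lost in 20 genes without XX WT replicate 1, 15 without XX WT replicate 2, 15 without XX -KTS KO replicate 1, 18 without XX -KTS KO replicate 2, 15 without XY WT replicate 1, 3 without XY WT replicate 2, 20 without XY -KTS KO replicate 1 and 19 without XY -KTS KO replicate 2, at edgeR adjusted p from 0.050 to 0.23. Among the other alternatives, 10 calls were lost with no cells of other types set aside (0.061 to 0.31), 3 with library totals without TMM (0.054 to 0.097), 3 with each cell thinned to 5000 UMIs (0.052 to 0.31) and 4 with the replicate number as a block (0.052 to 0.066), each range giving edgeR's adjusted p. With no cells set aside, Gm2694 (from 5.44 to 2.98), Tnfrsf19 (from -2.30 to -0.97) and Nid1 (from 1.15 to 0.75) moved by over 1.5 times on the log2 scale.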

How the results depend on the processing

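The number of genes changed in all kept cells stayed within 1.5 times 2847 under DESeq2, other scalings, thinned sums and the other filters on cells or counts (2471 to 3692), but was 1511 with no cells of other types set aside and 1108 to 1441 with 1 library left out. It was 1144 to 1368 and 452 to 751 with 1 library left out in cells without and with an Nr2f2 UMI. Genes that differed between the sexes numbered 1410 with DESeq2, 178 with no cells set aside, 931 with no filter on low counts, and 79 to 677 with 1 library left out. The cause of these shifts was not tested. Of 135 named genes called in all kept cells, 62 kept the call under each of the 14 alternatives, and 65 when only libraries were left out. Of the 135 the sign turned in 3 with no cells set aside, Klf2 (0.072), Pf4 (1.48) and Stmn2 (-0.58). Other alternatives gave an adjusted p under 0.05 to named genes that the report does not call. In all kept cells these were Irx3, Bmp2, Kitl, Irx5, Tcf21 and Nr2f2, as given beside them. In cells without an Nr2f2 UMI, genes passed in DESeq2 (Bmp2 at 0.034 and Kitl at 0.015), with no filter on low counts (Irx3 at 0.0058, Bmp2 at 0.012 and Kitl at 0.0088), with each cell thinned to 5000 UMIs (Kitl at 0.046) and with only the 4 XX libraries in the fit (Irx3 at 1.3e-04, Bmp2 at 0.0028 and Kitl at 0.029). In cells with one, genes passed with no filter on low counts (Irx3 at 0.0026, Kitl at 0.046, Shisa3 at 7.1e-04 and Cxcl12 at 0.0052), with each cell thinned to 5000 UMIs (Shisa3 at 0.045) and with only the 4 XX libraries in the fit (Irx3 at 1.8e-04, Rspo1 at 0.011, Shisa3 at 4.7e-04 and Cxcl12 at 9.6e-04). These are edgeR's adjusted p unless DESeq2 is named.

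Genes that were not called changed sign near 0: Sox9 (-0.025) and Wt1 (-0.026) with no TMM in all kept cells, Wt1 with no TMM without (-0.0085) and with an Nr2f2 UMI (-0.056), Gata4 without one with no TMM (-0.043) or thinned sums (-0.056), and Wnt4 with one with no TMM (-0.031). With 1 library left out their ranges were -0.045 to 0.099 (Wt1), -0.23 to 0.098 (Gata4), -0.38 to 0.66 (Sox9) and -1.02 to 0.067 (Wnt4) in all kept cells, -0.021 to 0.15 (Wt1), -0.036 to 0.099 (Gata4) and -0.11 to 0.015 (Lhx9) without an Nr2f2 UMI, and -0.035 to 0.081 (Wt1), -0.35 to 0.17 (Gata4) and -0.63 to 0.52 (Wnt4) with one.

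Shares of cells depend on depth. With no thinning, 3 or more pre-granulosa, pre-supporting and Sertoli genes were held by 59.8%, 78.3% and 5.38% of XX WT and 13.3%, 40.8% and 1.62% of XX -KTS KO cells, and thinned to 3000 UMIs by 35.5%, 56.5% and 0.227% against 2.02%, 21.7% and 0.0355%. Without the highest doublet scores the XX WT share of pre-granulosa genes was 43.6% and the mutant share of Sertoli genes 0.0275%, which was 0.0421% with perivascular and mesonephric cells also left out. At 2000 genes and 5% mitochondrial UMIs, endothelial cells made up 1.36% and immune cells 0.631% in XX -KTS KO, and erythroid cells 0.430% in XX WT and 0.584% in XX -KTS KO. Immune cells were 0.632% there without the highest doublet scores.

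Replicate numbers are shared between groups only as numbers: no source pairs the libraries, and the deviations of XX WT and XX -KTS KO replicate 1 correlated at -0.20 across genes, those of XY WT and XY -KTS KO at 0.17, and those of the other pairs of groups at -0.16 to 0.18. With the replicate number as a block, 2683 genes changed in all kept cells, 2744 and 1652 without and with an Nr2f2 UMI, and 408 differed between the sexes. The block took edgeR's adjusted p over 0.05 for Id3 (0.052), Crabp1 (0.067), Peg13 (0.056), Pnlip (0.061), Insl3 (0.065) and Dbh (0.059) in all kept cells and for Wnt4 (0.052), H19 (0.056), Nid1 (0.061) and Bag3 (0.066) between the sexes, among the named genes. It took it under 0.05 for Kitl (0.021) and Tcf21 (0.042) in all kept cells and for Kitl (0.016) in cells without an Nr2f2 UMI.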
